A study of Mus musculus with 24 samples.

Results

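The genes described here are 35 mouse genes of the unfolded protein response and of protein folding in the endoplasmic reticulum (ER). They were chosen by name: 11 chaperones and co-chaperones, 4 protein disulfide isomerases, 9 genes of ER-associated degradation and of the translocon, 3 stress sensors, 4 transcription factors and 4 outputs of ATF4 and CHOP. Of these, 33 had a row of the array table annotated with that gene alone, among 30140 genes so measured in all. The rows of Pdia4 and Manf also name Mir704 and Rbm15b, so these members have no value here, and Selenos was found under its older symbol Vimp. After a filter on dim rows, 29 of the 33 members entered the tests in the ventromedial hypothalamus (VMH) and 31 in brown adipose tissue (BAT).

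Total RNA was hybridised to 24 Affymetrix arrays, 12 per tissue, in a study that asks whether the astrocyte clock affects energy expenditure. The VMH is a nucleus of the hypothalamus with a role in energy balance and was dissected from frozen sections, and BAT is the fat that produces heat. In each tissue the 4 groups were Gfap-Bmal1 cKO mice on high fat diet (HFD), control mice on HFD, Gfap-Bmal1 cKO mice on standard diet (SD) and control mice on SD, with 3 arrays each and 16 weeks of diet. In the cKO mice a deletion of the clock gene Bmal1 was directed by Gfap, a gene of astrocytes. Any change confined to astrocytes is diluted in such bulk samples, where fewer cells of a type and less RNA per cell cannot be told apart. The labels give neither the age and sex of the mice, nor the alleles of the controls. They do not state either that each array had its own mouse, and p-values here rest on array-to-array spread, part of which may be technical.

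Proteins of the secretory pathway fold in the ER with the help of chaperones and of enzymes that form disulfide bonds, and misfolded ones are returned to the cytosol for degradation. When unfolded proteins build up, the membrane sensors IRE1 (Ern1), ATF6 and PERK (Eif2ak3) start a response: IRE1 splices Xbp1 mRNA, ATF6 is released as a transcription factor, and PERK slows translation while it favours ATF4 and CHOP (Ddit3). Hypothalamic ER stress has been studied in mice as a feature of diet-induced obesity, and thermogenic fat cells carry a large load of lipid and protein synthesis. The arrays give total transcript signals and measure neither Xbp1 splicing, nor ATF6 cleavage, nor kinase activity.

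Many chaperone genes carry an ER stress response element (ERSE), the bipartite motif that ATF6 binds together with NF-Y. Its presence or absence in a short window does not sort the members into targets of the response and others. RefSeq windows of the GRCm38.p6 build, 250 bases before to 50 after a transcription start, were held for 31 of the 35 members (32 windows). The ERSE, written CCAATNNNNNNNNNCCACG and searched on both strands, was found in 9 of the 32 member windows (28.1%), against 39 of all 32851 windows (0.119%). These 9 belong to Calr, Canx, Creld2, Derl3, Dnajc3, Hsp90b1, Hspa5, Pdia6 and Syvn1. The shorter ERSE-II, ATTGG and CCACG with any base between them, was found in 2 member windows, those of Dnajb11 and Herpud1 (6.25%, against 0.0365% of all windows). Of the 6 ERSE members that passed in the BAT diet comparison averaged over genotypes below, 4 are shown here (Creld2, Dnajc3, Canx, Pdia6). Those of Calr and Hsp90b1 are not printed. Also shown are the elements of the central chaperone Hspa5, of Syvn1, whose BAT diet difference is near 0, and the 2 ERSE-II elements. The letters of the motif are in capitals, with 8 bases on either side:
Creld2: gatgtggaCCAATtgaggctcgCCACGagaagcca
Dnajc3: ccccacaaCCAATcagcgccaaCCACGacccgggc
Canx: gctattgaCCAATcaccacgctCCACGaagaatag
Pdia6: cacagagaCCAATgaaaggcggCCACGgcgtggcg
Hspa5: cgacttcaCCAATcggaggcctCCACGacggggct
Syvn1: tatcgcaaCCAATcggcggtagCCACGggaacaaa
Dnajb11: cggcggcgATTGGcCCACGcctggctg
Herpud1: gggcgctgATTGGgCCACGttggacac
The Creld2 stretch lies at chr15:88819512-88819546 and the Canx stretch at chr11:50325792-50325826, both on the minus strand. On the plus strand lie those of Dnajc3 at chr14:118937819-118937853, Pdia6 at chr12:17266483-17266517, Hspa5 at chr2:34772017-34772051 and Syvn1 at chr19:6046524-6046558. The ERSE-II stretches, also on the plus strand, are at chr16:22857844-22857870 for Dnajb11 and chr8:94386369-94386395 for Herpud1. All lie before the start of transcription but the Dnajb11 element, which lies just after it. A match of letters describes the window and is not evidence that a factor binds there in these tissues.

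Creld2 gave the only call among the members in the planned comparisons of both tissues, so its whole window, chr15:88819396-88819695 on the plus strand in GRCm38.p6, is also shown. The capitals mark the ERSE, which reads here as CGTGG and ATTGG because it lies opposite to the gene:
Creld2: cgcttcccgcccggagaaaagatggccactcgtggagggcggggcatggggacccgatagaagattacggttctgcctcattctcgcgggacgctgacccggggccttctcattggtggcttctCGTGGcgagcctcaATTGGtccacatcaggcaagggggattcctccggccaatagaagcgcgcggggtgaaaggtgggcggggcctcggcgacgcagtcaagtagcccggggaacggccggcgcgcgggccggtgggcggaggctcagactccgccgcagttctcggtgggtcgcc
The element ends 108 bases before the start of Creld2, a secreted ER protein with disulfide isomerase activity that is induced by ER stress.

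Several facts of the whole table bear on the members. The median log2 signal of an array was 5.48 to 5.57 in VMH, against 4.07 to 4.16 in BAT, and no level is set across tissues. Correlations between 2 VMH arrays were 0.992 or higher, whereas BAT arrays correlated as weakly as 0.891. Bmal1 (Arntl), the targeted gene, was not lower in arrays labelled cKO: averaged over diets it differed by 0.40 ± 0.12 (log2, SE; limma adjusted p = 0.244) in VMH and by 0.37 ± 0.24 (adjusted p = 0.675) in BAT. The labels do not say which part of Bmal1 was deleted, this row may measure another part, and every genotype direction below rests on the label. In VMH, cKO HFD array 2 stood apart by pituitary hormone transcripts. Prl, Gh and Cga read 17.37, 13.74 and 12.38 there, against 4.11 to 5.74 in the other 11 VMH arrays. In BAT, Ucp1, the uncoupling protein that defines brown fat, read 8.87 in control SD array 1 and 16.30 in cKO SD array 2, and 19.31 to 19.93 in the other 10 arrays, where 19.93 is the highest value of the table.

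In the VMH of cKO mice, chaperone and disulfide isomerase signals lay higher on HFD than on SD, by 0.04 to 0.62 on the log2 scale for all 13 tested members of these classes, but none of the differences passed the test. Across all roles, 26 of 29 members lay above 0 with a median of 0.13, beside 59.5% of all genes above 0 and a median of 0.03 over them. Limma called 0 of 29 members and 1 of all 16211 genes (0.00617%) at an adjusted p under 0.05. At an unadjusted p under 0.05 there were 10 members, against 9.56% of all genes. The cKO HFD arrays lay wholly above the cKO SD arrays for 12 of 29 members, against 11.9% of all genes.

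Creld2 had the smallest p of the members in that comparison. It read 8.98, 9.21 and 8.89 in the cKO HFD arrays, 8.71, 8.66 and 8.51 in the control HFD arrays, 8.22, 8.47 and 8.53 in the cKO SD arrays and 8.69, 8.84 and 8.19 in the control SD arrays. The 3 cKO HFD arrays lay above the other 9 arrays, and the remaining groups overlapped. The share of all genes with cKO HFD arrays above the other 9 was not computed. The difference of HFD from SD in cKO arrays was 0.62 ± 0.15 (SE; adjusted p = 0.234), and in controls it was 0.06 ± 0.15 (adjusted p = 0.951).

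Hspa5, which encodes BiP, the main chaperone of the ER lumen and the partner that keeps the sensors inactive, read 12.94, 13.31 and 12.85 in cKO HFD arrays and 12.97, 12.52 and 12.72 in control HFD arrays, against 12.56, 12.46 and 12.59 in cKO SD arrays and 12.66, 13.02 and 12.35 in control SD arrays. The cKO HFD arrays all exceeded the cKO SD arrays, whereas the control SD arrays, from 12.35 to 13.02, overlapped both. Its diet difference was 0.50 ± 0.17 in cKO arrays (adjusted p = 0.399) and 0.06 ± 0.17 in control arrays (adjusted p = 0.951).

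Other members of the folding machinery showed similar sizes in cKO arrays. Pdia3, an isomerase that works on glycoproteins held by calreticulin and calnexin, differed by 0.34 ± 0.10 (adjusted p = 0.310). For Sdf2l1, which stabilises a co-chaperone of BiP, the difference was 0.46 ± 0.15, and for Calr, calreticulin itself, it was 0.50 ± 0.17 (adjusted p = 0.387 for each). Pdia6, a further isomerase (0.52 ± 0.19), and the co-chaperone Dnajb11 (0.38 ± 0.13) also had groups that did not overlap. Canx, the membrane-bound lectin chaperone, differed by 0.04 ± 0.07 and P4hb, the founding disulfide isomerase, by 0.06 ± 0.12, so that the shift was not common to the class.

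Degradation genes differed less. The 8 tested members had a median of 0.06 in cKO arrays on HFD against SD, with a range of -0.07 for Edem1, which hands glycoproteins over to degradation, to 0.29 for Herpud1, a scaffold of the membrane ligase complex. Ern1, the gene of IRE1, read 6.76, 6.94 and 6.93 in cKO HFD arrays and 7.01, 7.10 and 6.90 in control HFD arrays, against 6.91, 6.89 and 6.99 in cKO SD arrays and 6.84, 6.94 and 6.88 in control SD arrays. Eif2ak3, the gene of PERK, read 7.90, 7.89 and 7.89 in cKO HFD arrays and 7.99, 7.92 and 7.93 in control HFD arrays, against 7.74, 7.89 and 7.97 in cKO SD arrays and 7.72, 7.98 and 7.93 in control SD arrays. Within each genotype the diets overlapped for both sensors.

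Atf6 was as steady, at 8.74, 8.84 and 8.89 in cKO HFD arrays and 8.85, 8.83 and 8.87 in control HFD arrays, against 8.72, 8.77 and 8.81 in cKO SD arrays and 8.72, 8.82 and 8.85 in control SD arrays. The sensors' diet differences ranged from -0.055 to 0.06 in cKO arrays and from 0.06 to 0.12 in controls, with SEs of 0.06 to 0.08. The largest of these was for Ern1 in controls (0.12 ± 0.07, adjusted p = 0.706).

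Among the transcription factors, Xbp1, the target of IRE1 splicing, read 10.28, 10.50 and 10.29 in cKO HFD arrays and 10.30, 10.03 and 10.15 in control HFD arrays, against 10.00, 9.98 and 10.07 in cKO SD arrays and 10.08, 10.54 and 9.90 in control SD arrays. Atf4, the factor translated under PERK signalling, read 8.17, 8.16 and 8.2 in cKO HFD arrays and 7.73, 8.10 and 7.94 in control HFD arrays, against 7.93, 7.94 and 8.03 in cKO SD arrays and 7.97, 8.08 and 8.01 in control SD arrays. For both genes the cKO HFD arrays exceeded all cKO SD arrays, and for Atf4 they exceeded every other VMH array. How many of all genes did the latter was not computed. The diet differences in cKO arrays were 0.34 ± 0.14 for Xbp1 (adjusted p = 0.485) and 0.21 ± 0.08 for Atf4 (adjusted p = 0.471).

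Ddit3, the gene of the pro-apoptotic factor CHOP, read 7.62, 7.65 and 7.70 in cKO HFD arrays and 7.74, 7.69 and 7.89 in control HFD arrays, against 7.42, 7.68 and 8.03 in cKO SD arrays and 7.86, 7.48 and 7.79 in control SD arrays. These 4 groups overlapped. Of the outputs, Asns, asparagine synthetase, differed by 0.15 ± 0.08 and Chac1, a glutathione-degrading enzyme, by 0.11 ± 0.11 between diets in cKO arrays. Atf3, Derl3, Ppp1r15a and Trib3 fell below the filter in VMH, at 5.51, with signals of 4.04 to 5.24 over the 12 arrays, and were not tested there.

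**Figure D1:**
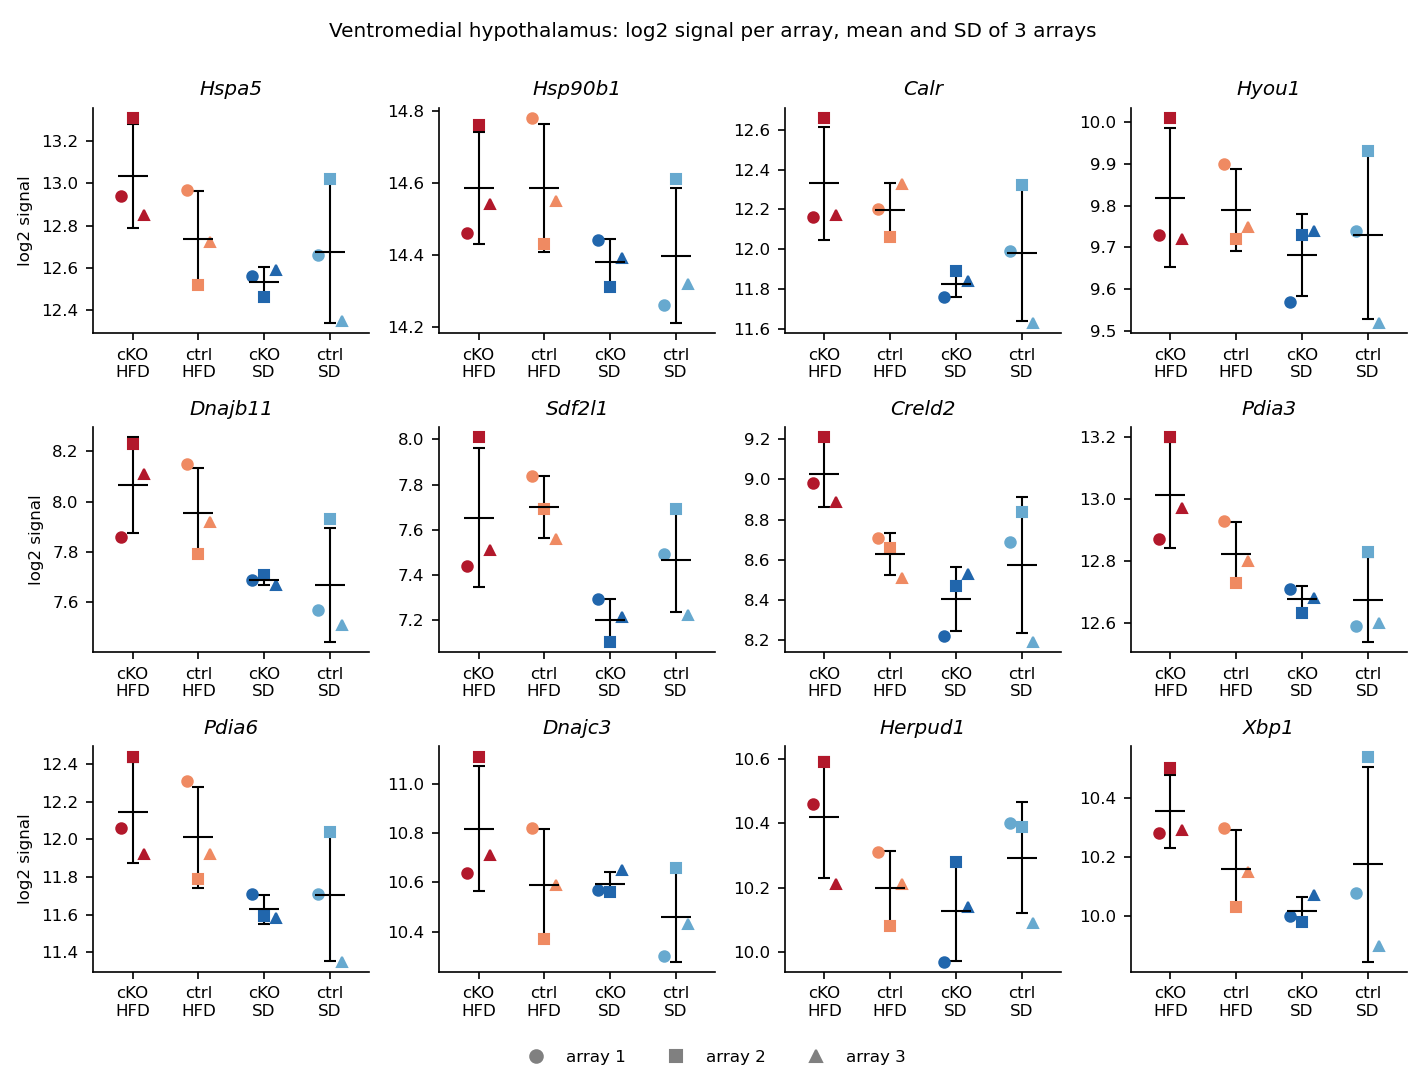
Log2 signals of 12 members in VMH, with 1 point per array (circle, square and triangle for arrays 1, 2 and 3), the mean as a bar and the SD as whiskers, for cKO HFD, control HFD, cKO SD and control SD. The squares of cKO HFD, array 2, are the highest point of that group in all 12 panels, and in control SD the squares are highest in 11 of 12.

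In 3 of the 4 groups the same array was highest for most chaperones. Of the 13 tested chaperones and isomerases, cKO HFD array 2 had the highest value of its group for 11, control HFD array 1 for 11 and control SD array 2 for 11, and no cKO SD array for more than 5. As a mean deviation from each gene's mean over the tissue, the 10 chaperones stood at 0.05, 0.38 and 0.13 in cKO HFD arrays, 0.17, -0.04 and 0.01 in control HFD arrays, -0.16, -0.14 and -0.10 in cKO SD arrays and -0.15, 0.11 and -0.26 in control SD arrays. The highest of these is cKO HFD array 2, whose 10 choroid plexus and pituitary markers averaged 8.81, against 5.63 and 5.94 in the other cKO HFD arrays and 5.51 to 6 in the other 9 arrays. Of the 10 markers, Prl, Gh and Cga carried that difference, while Ttr read 4.62 and Folr1 4.31 in the array.

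Without cKO HFD array 2 the diet differences in cKO arrays were smaller. The median over the 29 members became 0.08, with 24 above 0 and 3 at an unadjusted p under 0.05 (6.27% of all genes). Creld2 stood at 0.53, Hspa5 at 0.36, Pdia3 at 0.24 and Atf4 at 0.22. With the choroid plexus and pituitary marker mean as a covariate, chosen after seeing the data, the median was 0.07. That mean was 8.81 in cKO HFD array 2 and 5.51 to 6 elsewhere. The covariate thus mostly marked this array, and its fit is not a separate check from leaving the array out. Neuronal transcripts also stood higher in the cKO HFD arrays: the mean of 6 neuron markers was 14.41 to 14.56 there and 14.22 to 14.4 in cKO SD arrays, and 6 of 6 markers of VMH neurons lay above 0 with a median of 0.37, without a call. The mean of the VMH neuron markers was 12.06 to 12.38 in cKO HFD arrays and 12.11 to 12.47 in control HFD arrays, against 11.84 to 11.93 in cKO SD arrays and 11.67 to 11.91 in control SD arrays. The part of neuronal content in the chaperone differences was not tested.

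On HFD, cKO arrays of the VMH did not differ from controls at the threshold for any member, and the same held on SD and over both diets. Limma called 0 of 29 members on HFD (0.302% of all genes), 0 on SD (0.271%) and 0 averaged over diets (0.66%). At an unadjusted p under 0.05 there were 3 members on HFD (11.3% of all genes), 0 on SD (6.71%) and 2 averaged over diets (11.5%). On HFD the median of the members was 0.10, beside 0.03 over all genes, and 22 of 29 lay above 0 (59.6% of all genes). On SD the median was -0.02, beside 0.02 over all genes, with 10 of 29 above 0 (57.3% of all genes). Most oligodendrocyte markers lay lower in cKO arrays, without a call: 1 of 11 lay above 0 on each diet, with a median of -0.60 on HFD and -0.71 on SD. Their mean was 9.36 to 9.58 in cKO HFD arrays and 9.85 to 10.14 in control HFD arrays, and 9.11 to 10.27 in cKO SD arrays and 9.61 to 11.21 in control SD arrays. With that mean as a covariate the median of the members was 0.07 on HFD and -0.02 on SD. The markers were also lower on HFD than on SD in controls, with 0 of 11 above 0 and a median of -0.42. Of the other lists, the neuron marker Stmn2 was called higher in cKO arrays, by 0.89 on HFD (limma adjusted p = 5.7e-04) and 0.70 on SD (adjusted p = 0.0016). The 6 neuron markers had medians of 0.12 on HFD and -0.02 on SD. Averaged over diets, Stmn2 and the astrocyte marker Aqp4 (0.475, adjusted p = 0.048) were called, with 6 of 9 astrocyte markers above 0. Their part in the member differences was not tested.

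Atf4 had the smallest p on HFD, with a cKO minus control difference of 0.25 ± 0.08 (adjusted p = 0.312), followed by Derl1, a subunit of the retrotranslocation channel (0.18 ± 0.07, adjusted p = 0.356), Creld2 (0.40 ± 0.15, adjusted p = 0.371) and Sec61b, a subunit of the translocon (0.11 ± 0.06, adjusted p = 0.488). For these 4 and for Derl2 the cKO HFD arrays lay above all control HFD arrays, which 13.1% of all genes also showed. Edem1 and Eif2ak3 lay wholly below (7.08% of all genes), by -0.09 ± 0.10 and -0.06 ± 0.08. Without cKO HFD array 2 the median was 0.03, beside 0.02 over all genes, with 15 of 29 above 0. With the choroid plexus and pituitary covariate, which mostly marked that same array, it was 0.01.

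On SD the 4 smallest p belonged to Canx (0.13 ± 0.07), Sdf2l1 (-0.27 ± 0.15), the co-chaperone Dnajb9 (0.18 ± 0.11) and Herpud1 (-0.17 ± 0.12), with adjusted p of 0.805 to 0.873. Averaged over diets they belonged to Derl1 (0.13 ± 0.05, adjusted p = 0.335), Dnajb9 (0.20 ± 0.08, adjusted p = 0.368), Canx (0.10 ± 0.05) and Dnajc3 (0.18 ± 0.10), another co-chaperone of BiP. The intervals of the averaged differences lay within 0.5 of 0 for all 29 members, and those on SD for 25.

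The diet difference in control VMH was smaller than its error for most members. Limma called 0 of 29 (0% of all genes), and 0 members had an unadjusted p under 0.05 (8.49% of all genes). The median was 0.06, beside 0.02 over all genes, with 21 above 0 (56.1% of all genes). Dnajb11 (0.29 ± 0.13), Pdia6 (0.31 ± 0.19), Hsp90b1, the ER member of the Hsp90 family (0.19 ± 0.12), and Ern1 had the smallest p, with adjusted p of 0.588 to 0.706.

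Whether diet differed between genotypes was tested directly, and no member passed. The interaction gave 0 of 29 calls (0% of all genes), 3 members at an unadjusted p under 0.05 (5.62%) and a median of 0.09, beside 0.01 over all genes. Its smallest p were those of Creld2 (0.57 ± 0.22, adjusted p = 0.856), Atf4 (0.30 ± 0.12, adjusted p = 0.862), Herpud1 (0.39 ± 0.17) and Xbp1 (0.35 ± 0.20). Without cKO HFD array 2 the interaction median was 0.03. These comparisons share arrays, so their values are not independent of each other.

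A diet difference averaged over genotypes was added after the data were seen. In VMH it called 0 of 29 members and 2 of all genes (0.0123%), with 8 members at an unadjusted p under 0.05 (12.8% of all genes). The median of the members was 0.09, beside 0.02 over all genes, with 25 above 0 (60.2% of all genes). All 10 tested chaperones lay above 0, with a median of 0.24, and the 4 smallest p were those of Dnajb11 (0.33 ± 0.09, adjusted p = 0.220), Pdia3 (0.24 ± 0.07, adjusted p = 0.226), Sdf2l1 (0.35 ± 0.11) and Creld2 (0.34 ± 0.11). Without cKO HFD array 2 the median of the members was 0.07, with 6 at an unadjusted p under 0.05 (9.46% of all genes).

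**Figure D2:**
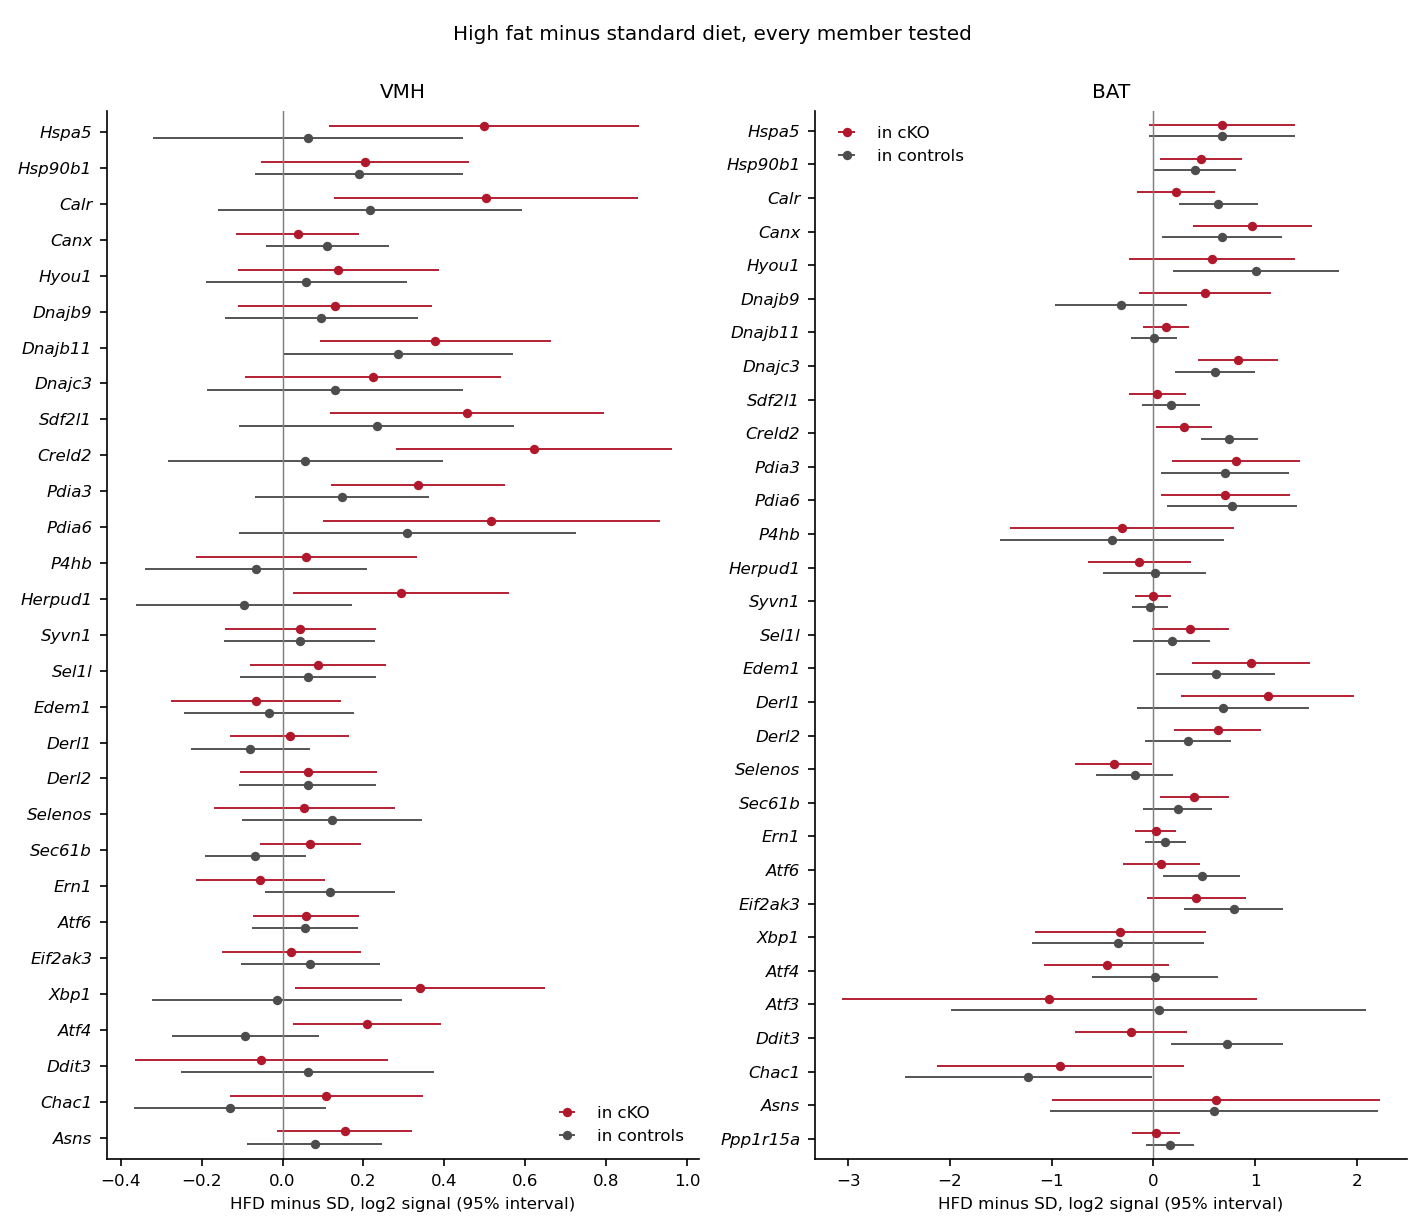
Differences of HFD minus SD in log2 signal with 95% intervals from limma, for every tested member, in cKO arrays (red) and in controls (grey); VMH with 29 members at left, BAT with 31 at right, on different horizontal scales. In VMH most intervals cross 0, with the largest difference at 0.62 for Creld2 in cKO arrays; in BAT the chaperones, isomerases and degradation genes lie mostly above 0, and Atf3, Chac1 and Asns have the widest intervals.

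In BAT, Creld2 was the member that passed the test in the planned comparisons, higher on HFD than on SD in controls. Of the 10 tested chaperones, 10 lay above 0 on HFD against SD in cKO arrays and 9 in controls, the exception being Dnajb9 (-0.32 ± 0.29), and the isomerase P4hb lay below 0 in both (-0.31 ± 0.49 in cKO arrays, -0.41 ± 0.49 in controls). The signal of Creld2 was 7.84, 7.88 and 7.50 in cKO HFD arrays and 7.95, 7.58 and 7.82 in control HFD arrays, against 7.45, 7.42 and 7.46 in cKO SD arrays and 7.03, 6.99 and 7.09 in control SD arrays. All 6 HFD arrays exceeded all 6 SD arrays, and the control SD arrays were the lowest. Creld2 rose by 0.75 ± 0.12 in controls (95% interval 0.47 to 1.02; limma adjusted p = 0.0382). In cKO arrays the difference was 0.30 ± 0.12 (adjusted p = 0.195), and the interaction, -0.45 ± 0.17, did not pass (adjusted p = 1).

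The call of Creld2 sat close to the threshold. Over the 23 alternatives its difference stayed between 0.66 and 0.85 while its adjusted p ranged over 0.0182 to 0.238. Left out singly, 9 of the 12 arrays ended the call: control SD array 1 (adjusted p = 0.102), control SD array 3 (0.167), cKO SD array 2 (0.0614), cKO SD array 3 (0.0675), control HFD array 1 (0.135), control HFD array 2 (0.0548), control HFD array 3 (0.0630), cKO HFD array 1 (0.0514) and cKO HFD array 2 (0.0598).

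Creld2 was the 1 call among 31 members on HFD against SD in controls, where 0.771% of all genes passed. At an unadjusted p under 0.05 there were 13 members, against 23% of all genes, and the median of the members was 0.34, beside 0.05 over all genes, with 25 of 31 above 0 (56.6% of all genes). After Creld2 the smallest p belonged to Calr (0.64 ± 0.17, adjusted p = 0.0981), Eif2ak3 (0.79 ± 0.22, adjusted p = 0.102) and Dnajc3 (0.60 ± 0.18, adjusted p = 0.112). Without control SD array 2, 10 members passed, 9 of them higher, beside 15.9% of all genes.

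In cKO BAT, limma called 0 of 31 members and 0% of all genes on HFD against SD. There were 11 members at an unadjusted p under 0.05 (22.9% of all genes), and the HFD arrays lay wholly above the SD arrays for 12 of 31 (15.5% of all genes). The median was 0.30, beside 0.04 over all genes. Dnajc3 (0.83 ± 0.18, adjusted p = 0.103), Canx (0.97 ± 0.26, adjusted p = 0.108), Edem1 (0.96 ± 0.26, adjusted p = 0.108) and Derl2, a relative of Derl1 (0.63 ± 0.19, adjusted p = 0.124), had the smallest p. Selenos, which recruits an ATPase to the retrotranslocation complex, was the member whose HFD arrays lay wholly below (-0.39 ± 0.17, adjusted p = 0.205; 13.5% of all genes). Without cKO SD array 1, Canx, Dnajc3 and Edem1 passed, and without control SD array 2, Dnajc3 passed. The median was 0.13 without cKO SD array 2.

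Averaged over genotypes, in the comparison added after the data were seen, 11 of 31 BAT members rose on HFD and 0 fell. Of all genes, 9.94% rose, 8.58% fell and 18.5% passed in either direction. At an unadjusted p under 0.05 there were 18 members, against 37.6% of all genes. The risers were 5 of 10 chaperones (Creld2, Dnajc3, Canx, Hsp90b1, Calr), 2 of 3 isomerases (Pdia3, Pdia6), 3 of 8 degradation genes (Edem1, Derl1, Derl2) and 1 of 3 sensors (Eif2ak3). None of the 4 transcription factors and none of the 3 tested outputs passed. Over all 31 members the median was 0.28, beside 0.04 over all genes.

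Dnajc3 read 12.05, 11.93 and 11.82 in cKO HFD arrays and 12.09, 11.80 and 11.71 in control HFD arrays, against 11.36, 10.83 and 11.13 in cKO SD arrays and 11.17, 11.57 and 11.04 in control SD arrays. With Creld2 it was 1 of 2 members whose 6 HFD arrays all lay above the 6 SD arrays, which 2.65% of all genes also showed. It rose by 0.72 ± 0.13 (adjusted p = 0.0144), and Creld2 by 0.52 ± 0.09 (adjusted p = 0.0133).

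Canx read 14.93, 15.21 and 15.13 in cKO HFD arrays and 14.90, 14.55 and 15.18 in control HFD arrays, against 14.48, 13.79 and 14.09 in cKO SD arrays and 13.69, 14.66 and 14.25 in control SD arrays. Only control SD array 2 reached into the HFD range, and the rise was 0.82 ± 0.19 (adjusted p = 0.0228). Hsp90b1 read 14.38, 14.14 and 13.96 in cKO HFD arrays and 14.43, 13.78 and 14.10 in control HFD arrays, against 13.87, 13.47 and 13.75 in cKO SD arrays and 13.58, 13.76 and 13.74 in control SD arrays. Its rise was 0.44 ± 0.13, with cKO SD array 1 above the lowest HFD array.

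Calr read 11.72, 11.51 and 11.44 in cKO HFD arrays and 12.15, 11.67 and 11.81 in control HFD arrays, against 11.52, 11.05 and 11.44 in cKO SD arrays and 11.06, 11.46 and 11.20 in control SD arrays. The diets overlapped in cKO arrays and not in controls, where 7 of 31 members and 14.3% of all genes lay wholly higher on HFD. The averaged rise of Calr was 0.43 ± 0.12 (adjusted p = 0.0396).

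Pdia3 read 13.44, 12.94 and 12.89 in cKO HFD arrays and 12.95, 12.65 and 13.04 in control HFD arrays, against 12.76, 11.82 and 12.25 in cKO SD arrays and 11.77, 12.64 and 12.11 in control SD arrays, a rise of 0.76 ± 0.20. For Pdia6 the signals were 11.72, 11.41 and 11.26 in cKO HFD arrays and 11.77, 11.23 and 11.80 in control HFD arrays, against 11.10, 10.28 and 10.88 in cKO SD arrays and 10.35, 11.29 and 10.84 in control SD arrays, a rise of 0.74 ± 0.20. In both isomerases the diets overlapped by 1 SD array. P4hb went with neither of them, at -0.36 ± 0.35 (adjusted p = 0.482).

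Edem1 read 9.95, 10.42 and 10.15 in cKO HFD arrays and 10.63, 10.26 and 10.32 in control HFD arrays, against 9.74, 8.72 and 9.18 in cKO SD arrays and 9.93, 10.04 and 9.41 in control SD arrays, a rise of 0.78 ± 0.18. Derl1 read 13.73, 13.84 and 13.66 in cKO HFD arrays and 14.02, 14.20 and 14.52 in control HFD arrays, against 13.07, 11.83 and 12.98 in cKO SD arrays and 13.03, 14.33 and 13.35 in control SD arrays. In both genes control SD array 2 was the SD array that reached the HFD range.

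Derl1 rose by 0.90 ± 0.27 (adjusted p = 0.0449). Derl2 rose by 0.49 ± 0.13, with 7.23, 7.48 and 7.08 in cKO HFD arrays and 6.95, 6.92 and 7.43 in control HFD arrays, against 6.78, 6.58 and 6.54 in cKO SD arrays and 6.46, 7.06 and 6.76 in control SD arrays. The other degradation genes did not pass: Sec61b differed by 0.32 ± 0.11 (adjusted p = 0.0624), Sel1l, the adaptor of the membrane ligase, by 0.27 ± 0.12, Selenos by -0.29 ± 0.12, Herpud1 by -0.06 ± 0.16 and Syvn1, the ligase itself, by -0.02 ± 0.06.

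Hspa5 fell just outside the threshold. It read 12.73, 12.45 and 12.17 in cKO HFD arrays and 12.89, 12.33 and 12.52 in control HFD arrays, against 12.09, 11.35 and 11.88 in cKO SD arrays and 11.30, 12.57 and 11.86 in control SD arrays. Control SD array 2 was again the SD array within the HFD range. The difference was 0.67 ± 0.23 (adjusted p = 0.0636), and Hyou1, an exchange factor for BiP, differed by 0.79 ± 0.26 (adjusted p = 0.0593). Dnajb9, Dnajb11 and Sdf2l1 differed by 0.06 to 0.11 (adjusted p of 0.412 to 0.777).

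**Figure D3:**
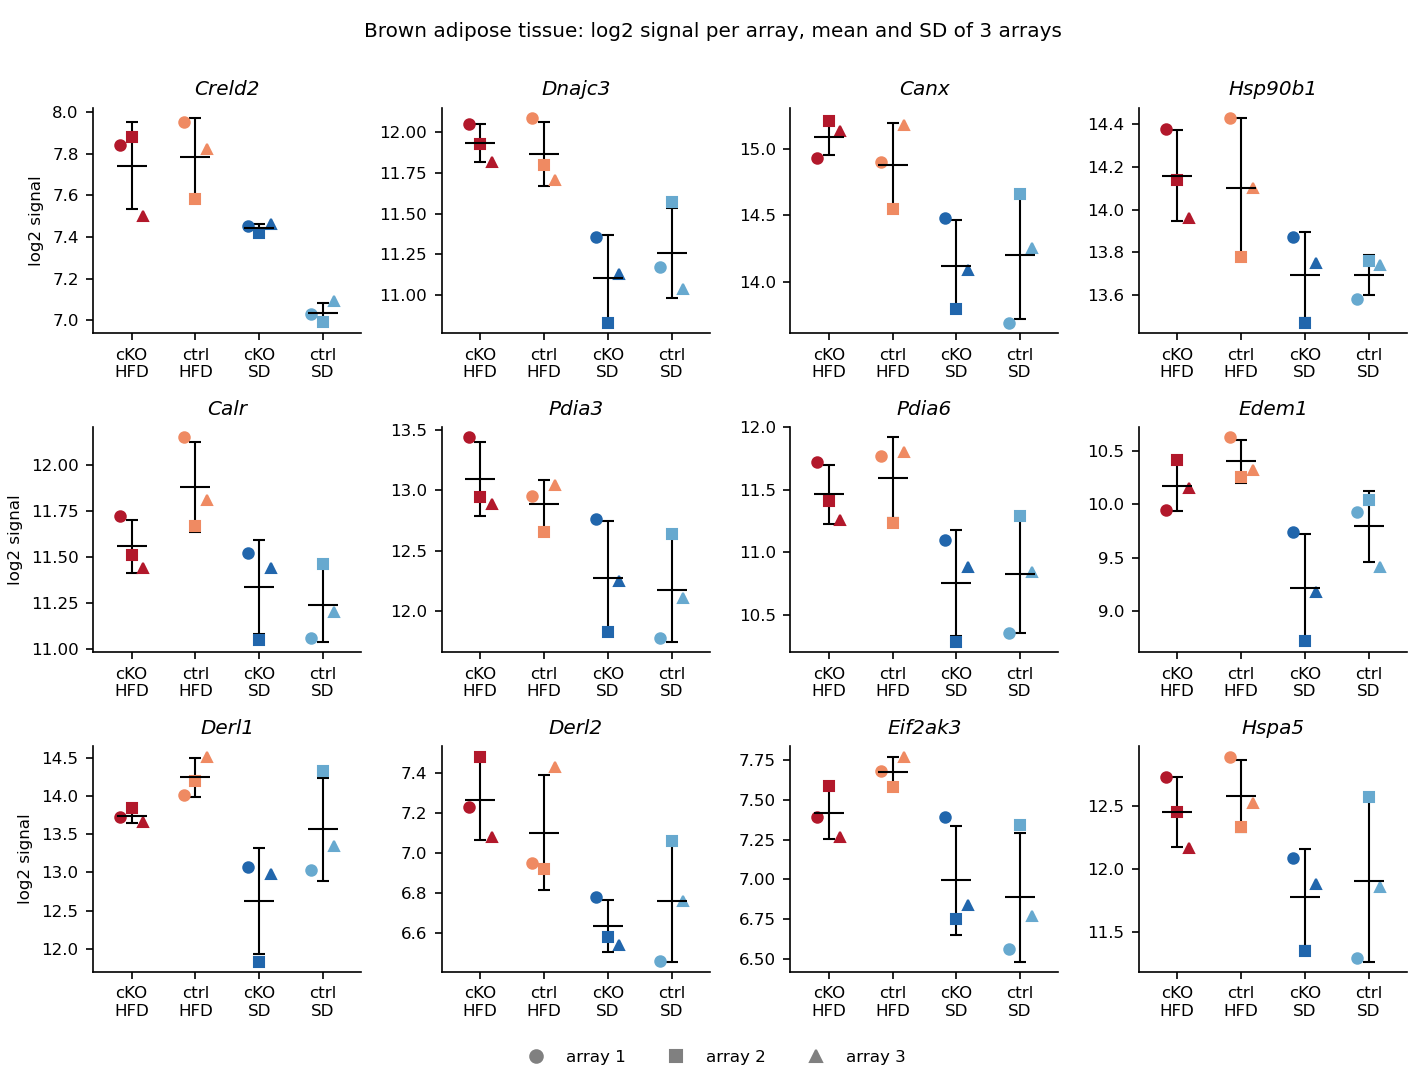
Log2 signals in BAT of the 11 members that rose on HFD when averaged over genotypes, and of Hspa5, with 1 point per array (circle, square and triangle for arrays 1, 2 and 3), the mean as a bar and the SD as whiskers. For Creld2 and Dnajc3 all 6 HFD arrays lie above the 6 SD arrays; in 7 of the 11 members control SD array 2, the light square, reaches the lowest HFD array or exceeds it.

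The sensors differed among themselves in BAT. Eif2ak3 read 7.39, 7.59 and 7.27 in cKO HFD arrays and 7.68, 7.58 and 7.77 in control HFD arrays, against 7.39, 6.75 and 6.84 in cKO SD arrays and 6.56, 7.34 and 6.77 in control SD arrays. It rose by 0.61 ± 0.15 over both genotypes (adjusted p = 0.0307), and the control HFD arrays lay above all SD arrays. Atf6 read 9.76, 9.88 and 9.60 in cKO HFD arrays and 10.46, 10.29 and 10.02 in control HFD arrays, against 9.66, 9.72 and 9.64 in cKO SD arrays and 9.52, 10.15 and 9.68 in control SD arrays. Its mean was highest in control HFD arrays, but its averaged diet difference of 0.28 ± 0.12 did not pass (adjusted p = 0.124). Ern1 read 6.21, 6.11 and 6.01 in cKO HFD arrays and 6.02, 5.96 and 6.15 in control HFD arrays, against 6, 6.1 and 6.17 in cKO SD arrays and 5.93, 5.97 and 5.87 in control SD arrays. Its diets overlapped in both genotypes (0.07 ± 0.06, adjusted p = 0.448).

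None of the 4 transcription factors passed the test in BAT. Xbp1 read 9.67, 8.85 and 9.03 in cKO HFD arrays and 9.35, 9.26 and 9.46 in control HFD arrays, against 8.66, 9.65 and 10.22 in cKO SD arrays and 9.89, 9.23 and 10.00 in control SD arrays. The SD arrays held both the highest and the lowest value, and the averaged difference was -0.34 ± 0.27 (adjusted p = 0.384). Atf4 read 6.68, 7.35 and 7.10 in cKO HFD arrays and 7.76, 7.63 and 7 in control HFD arrays, against 7.01, 7.97 and 7.54 in cKO SD arrays and 7.58, 7.34 and 7.43 in control SD arrays. All 4 groups overlapped, with an averaged difference of -0.22 ± 0.20 (adjusted p = 0.436).

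Ddit3 read 8.05, 8.51 and 7.82 in cKO HFD arrays and 9.25, 9.23 and 8.48 in control HFD arrays, against 8.50, 8.31 and 8.23 in cKO SD arrays and 8, 8.55 and 8.23 in control SD arrays. Control HFD arrays 1 and 2 stood above all other BAT arrays. The diet difference was -0.22 ± 0.25 in cKO arrays and 0.73 ± 0.25 in controls (adjusted p = 0.596 and 0.141). Atf3, a stress factor downstream of ATF4, read 9.51 in cKO SD array 3 and 5.31 to 6.97 in the other 11 arrays.

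Outputs of ATF4 and CHOP went in different directions, without a call. Chac1 read 4.83, 4.38 and 4.78 in cKO HFD arrays and 4.22, 4.52 and 4.55 in control HFD arrays, against 4.71, 6.42 and 5.61 in cKO SD arrays and 6.41, 4.36 and 6.22 in control SD arrays. Of the SD arrays, 4 lay above every HFD array and the other 2 within the HFD range, and the averaged difference was -1.07 ± 0.38 (adjusted p = 0.0748). Asns differed by 0.61 ± 0.51 and Ppp1r15a, the phosphatase subunit that ends the translational block, by 0.09 ± 0.07. Derl3 and Trib3, a pseudokinase induced by CHOP, fell below the BAT filter of 4.13, at 3.5 to 4.27.

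**Figure D4:**
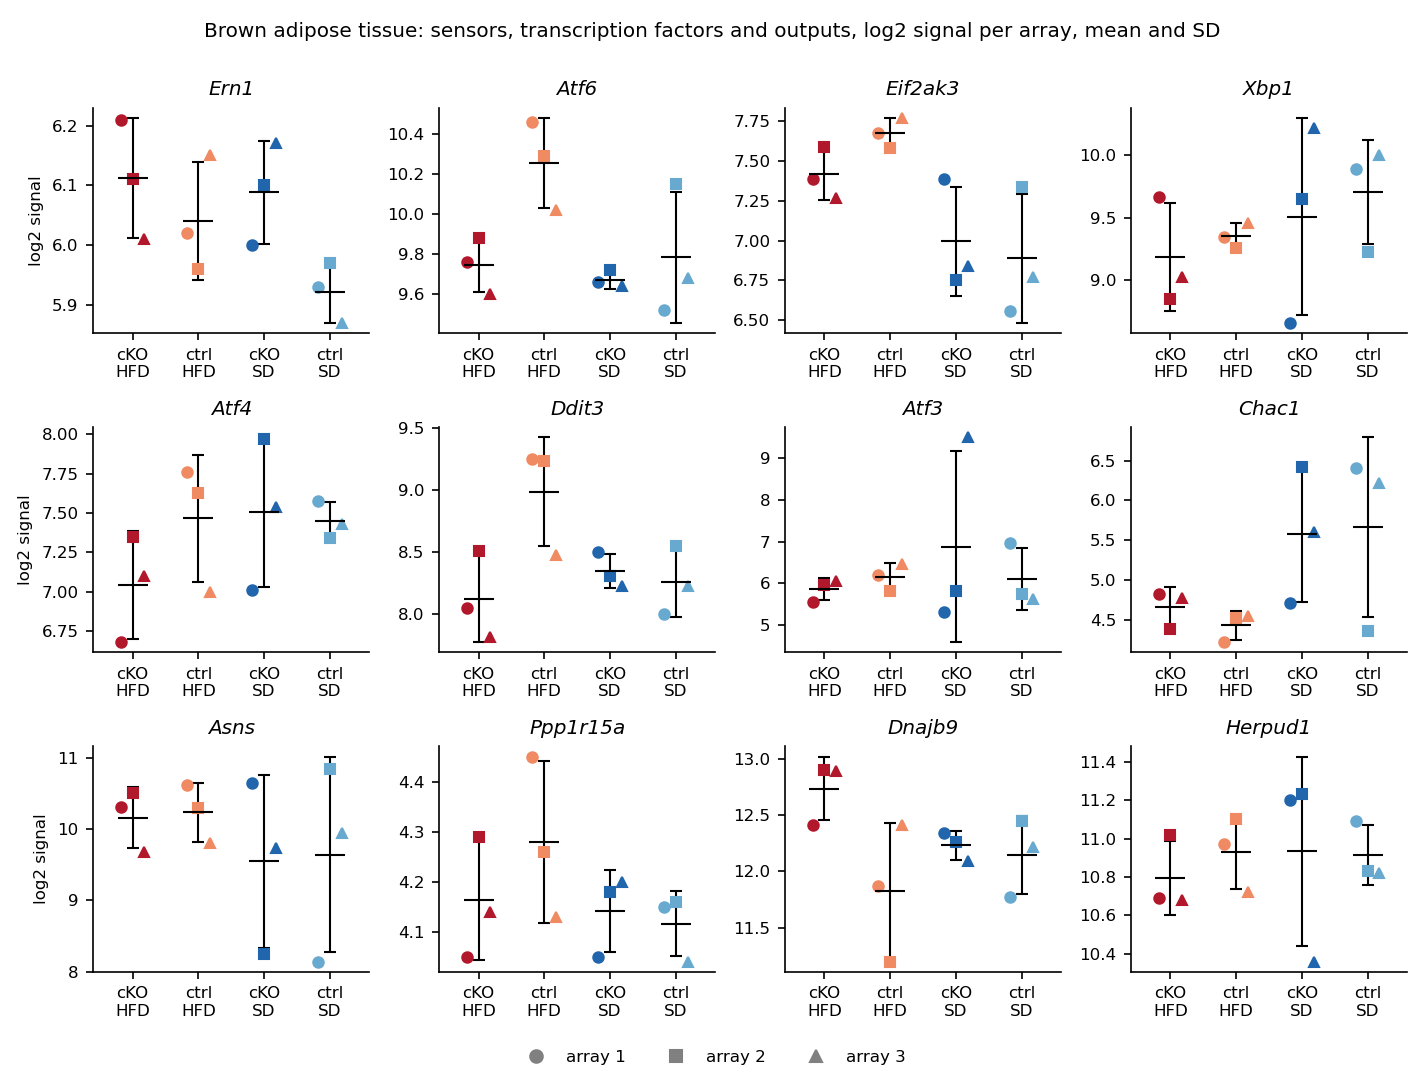
Log2 signals in BAT of the 3 sensors, the 4 transcription factors, 3 outputs and the members Dnajb9 and Herpud1, with 1 point per array, the mean as a bar and the SD as whiskers, on separate vertical scales. Ddit3 is highest in control HFD arrays 1 and 2 (9.25 and 9.23), and Chac1 ranges from 4.36 to 6.42 within the SD arrays.

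The calls of the averaged diet comparison in BAT depended on single arrays. The count of 11 became 16 without control SD array 2 and 15 without cKO SD array 1. It became 2, Creld2 and Dnajc3, without control SD array 3, cKO SD array 2, cKO SD array 3, control HFD array 1 or cKO HFD array 2. It was 4 without control SD array 1, control HFD array 3 or cKO HFD array 1, 5 without cKO HFD array 3 and 6 without control HFD array 2.

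Markers of skeletal muscle moved with diet in BAT. The mean of 12 of 12 measured muscle markers was 6.15, 11.23 and 13.74 in cKO HFD arrays and 7.49, 6.17 and 10.36 in control HFD arrays, against 15.33, 17.84 and 17.21 in cKO SD arrays and 18.04, 6.16 and 17.06 in control SD arrays. Control SD array 2 had a muscle level as low as the lowest HFD arrays. The 10 tested chaperones stood at 0.05 from their tissue mean in that array, against -0.48 to -0.05 in the other 5 SD arrays and -0.01 to 0.42 in the 6 HFD arrays. In array order the HFD values were 0.31, 0.30 and 0.12 in cKO arrays and 0.42, -0.01 and 0.26 in controls. Among HFD arrays the lowest chaperone value was thus in control HFD array 2, where the muscle level was 6.17. All 12 muscle markers were lower on HFD over both genotypes, with a median difference of -6.46, and 4 passed the test (Tnni2, Myl1, Ckm and Mylpf).

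With the muscle marker mean as a covariate, 0 of 31 members passed (0.111% of all genes), and the median of the members was 0.12, beside 0.01 over all genes. Dnajc3 then differed by 0.47, Creld2 by 0.51, Canx by 0.63 and Hspa5 by 0.17. All SD arrays but control SD array 2 had muscle levels of 15.33 or more, and all HFD arrays had 13.74 or less. The covariate thus largely coincided with diet, so a call lost in this fit cannot tell muscle from diet. Without control SD array 1 and cKO SD array 2, the arrays of lowest Ucp1, 0 members passed (0.707% of all genes) and the median was 0.22. With the brown adipocyte marker mean as a covariate Creld2 passed (2.09% of all genes), and the median was also 0.22. The last 2 alternatives were chosen after seeing the data, and the part of muscle, or of brown fat content, in the diet differences was not tested beyond these fits.

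Adipocyte and macrophage markers also differed between diets. The 8 tested brown adipocyte markers all lay above 0 on HFD against SD over both genotypes, with a median of 1.32 and 0 calls. Of 5 white adipocyte markers 2 fell, Nnat by 3.57 and Retn by 3.93 on the log2 scale. Another 2 lay above 0 without a call, and the median of the 5 was -0.88. The mean of the 5 was 9.47 to 10.21 in cKO HFD arrays and 9.28 to 10.07 in control HFD arrays, against 10.42 to 11.81 in cKO SD arrays and 10.7 to 12.68 in control SD arrays. The diets did not overlap in this mean, in which Nnat and Retn had the largest falls. Of the macrophage markers, over both genotypes 7 of 7 tested markers lay above 0 and 3 rose on HFD: Cd68 by 2.67 ± 0.29, Adgre1 by 1.51 ± 0.25 and Ptprc by 1.04 ± 0.20. The mean of the 8 macrophage markers was 6 to 6.64 in cKO HFD arrays and 5.98 to 6.36 in control HFD arrays, against 5.47 to 5.79 in cKO SD arrays and 5.18 to 5.69 in control SD arrays. The part of white adipocytes and macrophages in the chaperone differences was not tested. Markers of B cells and plasma cells, which are rich in ER chaperones, averaged 4.06 to 4.37 in cKO HFD arrays and 3.91 to 4.07 in control HFD arrays, against 4.03 to 4.22 in cKO SD arrays and 3.93 to 4.33 in control SD arrays, near the filter.

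**Figure D5:**
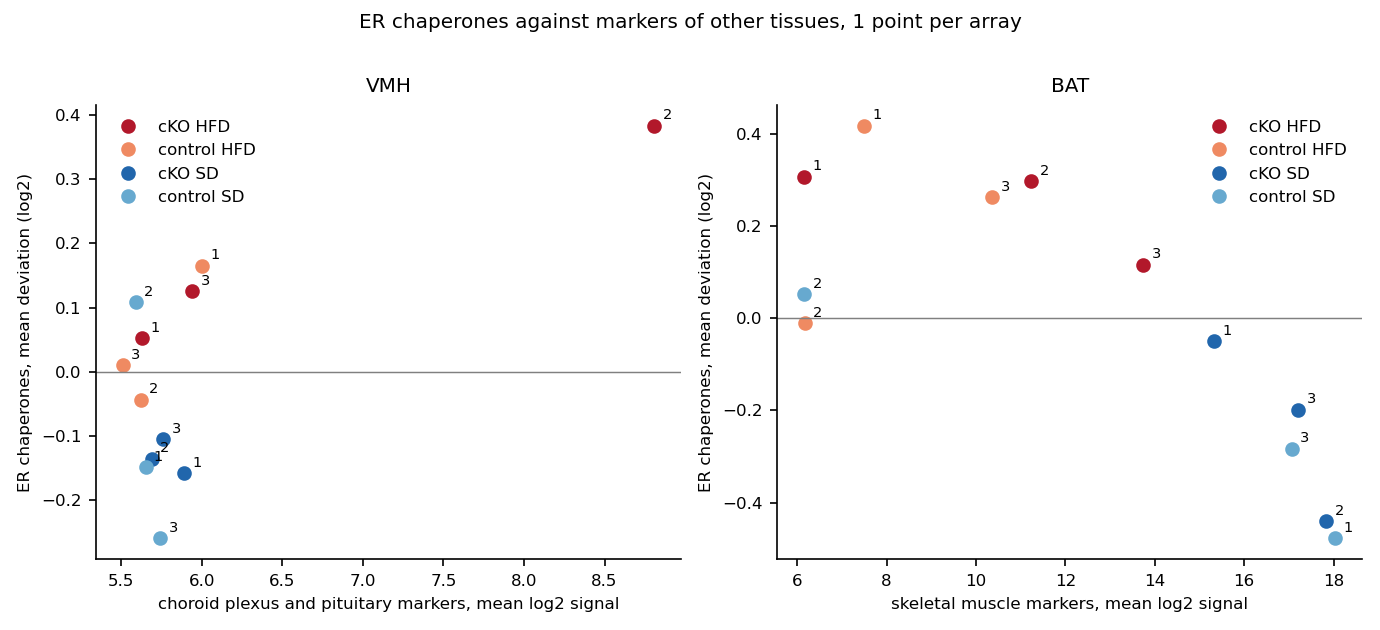
Mean deviation of the 10 tested ER chaperones from their tissue mean (vertical, log2) against the mean log2 signal of other tissues' markers (horizontal), with 1 point per array, numbered within its group; VMH against choroid plexus and pituitary markers at left, BAT against skeletal muscle markers at right. In VMH, cKO HFD array 2 stands alone at 8.81; in BAT the 5 SD arrays with muscle levels of 15.33 or more lie below 0, and control SD array 2 lies with the HFD arrays.

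Genotype made no difference that passed for any gene in BAT. Limma called 0 of 31 members on HFD (0% of all genes), 0 on SD (0%) and 0 averaged over diets (0%). At an unadjusted p under 0.05 there were 3 members on HFD (8.26% of all genes), 2 on SD (3.56%) and 3 averaged over diets (8.73%). On HFD the smallest p were those of Ddit3 (-0.86 ± 0.25, adjusted p = 0.496), Dnajb9 (0.91 ± 0.29, adjusted p = 0.518), Atf6 (-0.51 ± 0.17, adjusted p = 0.550) and Calr (-0.32 ± 0.17). Atf6, Hyou1 and Derl1 had cKO HFD arrays wholly below the control HFD arrays, which 12.5% of all genes also showed.

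On SD, cKO arrays lay wholly above control arrays for 2 of 31 members, against 3.53% of all genes. Creld2 was 1 of them, 0.41 ± 0.12 higher, and had the smallest p (adjusted p = 0.982). Derl1 (-0.94 ± 0.38), Edem1 (-0.58 ± 0.26) and Ern1 (0.17 ± 0.09) followed, also at an adjusted p of 0.982. Averaged over diets the smallest p were those of Derl1 (-0.72 ± 0.27, adjusted p = 0.547), Atf6 (-0.31 ± 0.12, adjusted p = 0.547), Dnajb9 (0.50 ± 0.21) and Ddit3 (-0.39 ± 0.17). The median SE of a genotype difference on 1 diet was 0.23 in BAT, against 0.11 in VMH, and the 95% interval lay within 0.5 of 0 for 11 of 31 BAT members on HFD and 8 on SD, so differences below that size could often not be seen at this number of arrays.

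The interaction of genotype and diet in BAT called 0 of 31 members (0% of all genes), with 2 at an unadjusted p under 0.05 (3.79%). These were Ddit3 (-0.95 ± 0.35) and Creld2 (-0.45 ± 0.17). Dnajb9 (0.82 ± 0.41) and Calr (-0.42 ± 0.24) followed, and the adjusted p was 1 for all 31.

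Members with an ERSE in their window were set beside the others as a description. In BAT, on HFD against SD over both genotypes, the 8 tested ERSE members had a median of 0.60 with 6 calls. The 20 other tested members with a window had a median of 0.09 with 4 calls. All of these calls were higher, where 9.94% of all genes rose. Derl1, Hyou1 and Atf6 were tested but have no window, so they are in neither set in either tissue. In BAT all of them lay above 0 in this comparison, and Derl1 passed at 0.90. With the muscle marker covariate, which largely coincided with diet, 0 of all 31 members passed. Syvn1, whose element is printed above, was at -0.02, so a match did not go with a higher signal in every case. In VMH cKO arrays the medians on HFD against SD were 0.36 for 8 ERSE members and 0.10 for 18 others, with 0 calls in either.

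Other genes of the pathway were described by 2 further lists, without a test between lists. A list of 40 further ER folding, translocation and degradation genes had 37 tested, and in the averaged BAT diet comparison 6 rose and 0 fell, where 9.94% of all genes rose and 8.58% fell, with a median of 0.18 beside 0.04 over all genes. Examples were Nploc4, a cofactor of the ATPase that extracts ER proteins (0.79 ± 0.16), Sec61a1, the translocon pore (0.64 ± 0.14), Edem2 (0.38 ± 0.08) and Hspa13 (0.50 ± 0.12). Of 34 further integrated stress response genes 28 were tested, of which 7 rose and 1 fell in that comparison, with a median of 0.27. Eif4ebp1, a translational repressor, rose by 0.74 ± 0.12, the tryptophanyl-tRNA synthetase Wars by 0.68 ± 0.15 and the amino acid transporter chain Slc3a2 by 0.62 ± 0.14, while Cth, which makes cysteine, fell by 1.07 on the log2 scale. In the other BAT comparisons and in all VMH comparisons 0 genes of both lists passed.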

How the data were processed

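The authors deposited a table of log2 signals, 1 column per array, for 72688 features. The submitters' processing notes name Affymetrix Expression Console 1.1.1 and PLIER 2.0, without a role. How arrays were normalized, and on which genome build probes were placed, is not given in the sources used here. The labels name no batch. By the platform annotation 30604 features carried 1 gene symbol and 2146 more than 1, 33206 were unnamed and 6732 were controls, and 833 symbols were updated through a RefSeq gene table. Dim rows, with a mean below the table's median of row means (5.51 in VMH, 4.13 in BAT), were left out, and the brightest row stood for a gene. Tests covered 16211 genes in VMH and 17123 in BAT.

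No step was added to the deposited values before testing. A model with 4 group means was fitted to the 12 arrays of a tissue in limma 3.58.1 (R 4.3.3), and p-values, two-sided, were adjusted by Benjamini-Hochberg over all tested genes, with a threshold of 0.05. The fit was run on simulated data with noise drawn separately for each gene. Such data lack variation shared between genes, so this run does not check the calls made here. The number of arrays limits the precision.

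Per-array values are given for members past the threshold, the 3 sensors, Hspa5, Xbp1, Atf4 and Ddit3, and the 4 smallest p of each comparison are named; Chac1, Derl1 on HFD and other members were named after their values were seen. The members and lists were chosen with earlier results of these data known. The main fit did not treat replicate numbers as pairs. Correlations of deviations between same-numbered arrays of different groups had a median of -0.01 in VMH (-0.35 to 0.28) and 0.09 in BAT (-0.77 to 0.39). They exceeded 0.1 in 3 of 18 such pairs in VMH and 9 of 18 in BAT. With 3 arrays per group these values cannot exclude a pairing. Alternatives were a replicate block, array weights, marker covariates, quantile normalization, a fit to the compared groups alone, a robust prior with a trend, averaging over a gene's features, keeping dim features, a pseudocount of 16 and leaving out each array.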

Additional observations from a re-analysis of the deposited data

Results flagged for a closer look

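Derl1, a component of the retrotranslocation machinery, stood apart between genotypes on HFD in opposite directions in the 2 tissues. In VMH its 3 cKO HFD arrays (11.57, 11.59 and 11.67) lay above the 3 control HFD arrays (11.45, 11.50 and 11.33), a difference of 0.179. In BAT the 3 cKO HFD arrays (13.73, 13.84 and 13.66) lay below the 3 control HFD arrays (14.02, 14.20 and 14.52), a difference of -0.502. Neither passed the limma test (adjusted p = 0.356 in VMH and 0.789 in BAT), and the difference between the tissues was not tested. Of all genes, 13.1% had cKO HFD arrays wholly above control HFD arrays in VMH, and 12.5% had them wholly below in BAT. Derl1 was picked out by scanning all members, and the share of all genes that did both was not computed.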

How the results depend on the processing

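No member passed in VMH under any alternative. Of 63 named differences, recomputed under 1390 alternatives in all, 0 changed direction, 141 lost a call and 11 gained one, and the rest kept both. The VMH median for cKO minus control on HFD, 0.10, ranged over 0.028 to 0.11 as arrays were left out singly and was 0.011 with the choroid plexus and pituitary covariate. The VMH interaction median was 0.02 with that covariate, which mostly marked cKO HFD array 2 and so largely repeated leaving it out. In BAT, the count of members for HFD minus SD in controls, 1, became 0 under quantile normalization, only the groups compared, array weights, the muscle covariate, the brown adipocyte covariate and without the 2 arrays of lowest Ucp1, and ranged over 0 to 10 as arrays were left out singly; the median became 0.20 with the muscle covariate. For HFD minus SD in cKO arrays, array weights gave 20 calls, 16 of them higher, from weights that stopped before convergence in a fit, single arrays left out gave 0 to 3, and the median was 0.067 with the muscle covariate, 0.129 without the 2 arrays of lowest Ucp1, and 0.129 to 0.387 as arrays were left out singly. For the diet difference averaged over genotypes, 6 passed without the filter, 0 with the muscle covariate, 0 without the 2 arrays of lowest Ucp1 and 1 with the brown adipocyte covariate, single arrays left out gave 2 to 16, and the median was 0.12 with the muscle covariate. With the replicate number as a block, the paired fit gave 0 calls in BAT controls and 4 (Canx, Creld2, Dnajc3 and Edem1) averaged over genotypes; it changed no other count. No filter tests more genes, and fits without an array or with a covariate have fewer degrees of freedom. The muscle covariate also largely coincided with diet. Other causes were not tested. Dim members near the filter have little signal over background.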

Other observations

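Other motifs of the pathway were sought in the same 32 member windows, on both strands. The element bound by XBP1, TGACGTGG, and the ATF4 and CHOP composite element, TGATGNAAT, were found in 0 member windows, against 0.676% and 0.965% of all 32851 windows. No match says only that these letters are not in these 300 bases. The E-box CACGTG, to which BMAL1 binds with CLOCK, was found in 4 member windows (12.5%, against 7.15% of all windows), those of Calr, Derl3, Dnajb9 and Selenos. Derl3 was below the filter in both tissues. The other 3 did not pass in any comparison of genotypes, but neither did any other member, so this does not set them apart. Hsp90b1 was the member with 2 ERSE matches in its window.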
